A study of Homo sapiens with 11 samples.

Results

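Among 19044 CTCF summits called in wild-type (WT) cells, 2959 (15.5%, 95% interval 15.0 to 16.1) had a summit within 500 bp in the list of ORC2 deletion cells and none within 500 bp in the list of rescue cells. These 2959 sites are called rescue-absent here. They were chosen by the presence of summits in the 3 lists, so their presence in WT and deletion and their absence from rescue are the choice itself and not a finding, and the values behind those calls are given as a description with no test. Of the other WT summits, 14090 were found in all 3 lists, 431 in rescue and not in deletion, and 1564 in neither.

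CTCF was mapped by CUT&RUN, in which an antibody brings a nuclease to a bound protein and the DNA cut free around it is sequenced. All groups were HCT116 p53-/- cells, which come from a human colorectal carcinoma, lack p53 and serve as WT here. The ORC2 deletion cells (ORC2-/-, named ORC2B2) are 1 clone made in that line with CRISPR/Cas9, and the rescue cells were selected as clones after ORC2 with its untranslated regions had been put back on the plasmid pLHCXORC2. Each of these 3 genotypes had 2 libraries with a CTCF antibody. As background, IgG was used in 2 WT libraries, 2 deletion libraries and 1 rescue library. The deposited lists hold 1 list per genotype, with 19044 summits for WT, 31112 for deletion and 20810 for rescue. No list names a replicate, so no spread between replicates and no test between genotypes can be given, and a difference between clones cannot be told apart from an effect of ORC2. Sequencing depth is unknown. Intervals below cover counting error only, and neighbouring sites are not independent. Peak lists hold no expression values, so the labelled cell type could not be checked against markers.

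CTCF is a DNA-binding protein with a row of zinc fingers that reads a long, asymmetric motif. It stops cohesin as that ring complex extrudes chromatin loops, so pairs of CTCF sites often form loop anchors and domain borders. Many strong CTCF sites are bound in most cell types, whereas weaker ones vary more. ORC2 is a subunit of the origin recognition complex, which loads the MCM helicase onto DNA before replication.

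The sequences that could be read for rescue-absent sites were those in RefSeq promoter windows (GRCh38.p14), which run from 250 bases before to 50 bases after a gene's start. The table holds 34943 windows. In all, 186 rescue-absent summits fell in 216 windows. The core of the textbook CTCF motif, 12 positions with 8 fixed letters, was searched on either strand. It was found in 19 of the 216 windows, 8.80% (5.70 to 13.3). Among windows that held a summit found in all 3 lists the share was 15.7% (96 of 610, 13.1 to 18.8), and among all windows it was 2.41% (843 of 34943). Windows of summits found only in WT stood at 6.13% (10 of 163, 3.37 to 10.9), and those of WT and rescue without deletion at 0 of 39, with an upper bound of 8.97%. With a looser form of 7 fixed letters, which contains every match of the first, the shares were 22.7% (49 of 216), 37.7% (230 of 610) and 10.6% of all windows. With a stricter form of 10 fixed letters, a subset of the first, they were 1.85% (4 of 216), 5.57% (34 of 610) and 0.355%. For each of the 3 forms the share in windows of rescue-absent sites lay between those of sites kept in all 3 lists and of all windows. The intervals of rescue-absent sites and sites in all 3 lists overlapped for the first form and the stricter one (0.722 to 4.66 and 4.02 to 7.69). They did not for the looser one (17.6 to 28.7 and 33.9 to 41.6). Windows of summits found only in WT had no higher share than rescue-absent ones, and the shares were not split by summit strength. A match of letters is a description and not a shown binding site.

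The 6 matches from the rescue-absent sites of highest WT value are shown to let the motif be seen in its setting, 5′ to 3′ on the strand of the match, with the 12 motif letters in capitals and 9 bases on either side.
ZNF354A: gcccacatgCCACAAGAGGGCccctgtgag
CUL5: caggtcccgCCAGCAGAGGGCacggtcccg
MELTF: gggaggcctCCAGCAGGGGGCgcgccgggg
DAPK2: gagggggctCCAGCAGGGGGCgccccgagc
GPA33-AS1: aatatacctCCACCAGCAGGCaggaatctg
UQCRC1: cggttcccgCCAGGAGGCGGCcgagcacca
The first lies on the plus strand at chr5:178730825-178730854, in the promoter window of ZNF354A, a zinc finger protein, 31 bp from a WT summit of value 12.6. A summit's value is its q from peak calling as −log10, so that higher values mean stronger calls. The deletion summit there had a value of 3.33, 149 bp away, and the nearest rescue summit lay 269679 bp off.

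CUL5, a cullin scaffold of ubiquitin ligases, has its match on the plus strand at chr11:108008811-108008840. Its summit values were 7.90 in WT and 13.4 in deletion. MELTF, a transferrin-family membrane protein, has its match on the minus strand at chr3:197029898-197029927, with values of 7.56 and 6.45. DAPK2, a calmodulin-regulated kinase of the death-associated family, has its match on the minus strand at chr15:64046550-64046579, with values of 7.42 and 12.3. The MELTF and DAPK2 matches share the same 12 letters, which are also the stricter form. At the antisense transcript GPA33-AS1 (plus strand, chr1:167052614-167052643) the values were 6.88 and 12.3. At UQCRC1, a subunit of respiratory complex III (minus strand, chr3:48609707-48609736), they were 5.89 and 16.7. Over the 18 matches that could be shown with full flanks, the motif's centre lay 15 to 159 bp from the WT summit, with a median of 89.5 bp. For 88 matches at summits found in all 3 lists the median was 99.5 bp.

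Rescue-absent sites came mainly from the weak end of the WT list. Their WT value ranged from 1.31 to 27.5 with a median of 4.30, against 7.31 for summits found in all 3 lists and 6.18 over all WT summits. Of the rescue-absent sites, 77.1% (75.5 to 78.5) lay below the median of the WT list. This share was 56.2% with matching within 100 bp and 68.3% with lists of equal length. Only 4.53% (134 sites) reached a value of 10, against 30.2% of summits in all 3 lists. Summits of WT and rescue without deletion had a similar median, 4.18, and those found only in WT a lower one, 2.59.

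With the WT list split into 10 classes of equal size by value, the rescue-absent share fell from class to class above the second. It was 26.8% (24.8 to 28.8) in the lowest class, 29.3% (27.3 to 31.3) in the second and 0.945% (0.599 to 1.49) in the highest, which held 18 such sites. Summits found only in WT made up 40.5% of the lowest class. Taken over the 17049 WT summits that had a deletion summit, 17.4% (16.8 to 17.9) lacked a rescue summit. On that base the share was 48.4% in the lowest class of WT value and 0.952% in the highest.

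**Figure D1:**
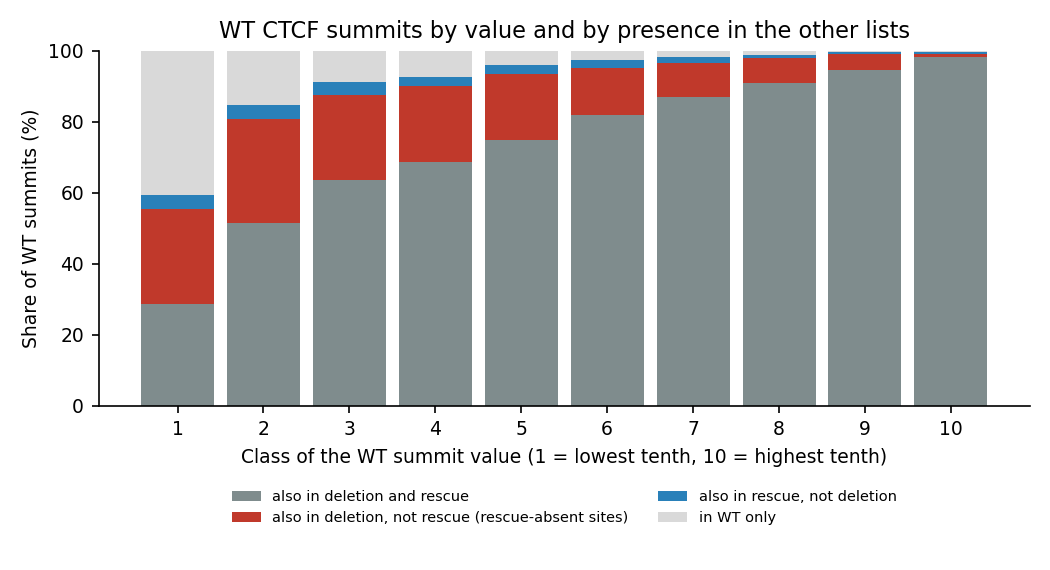
Stacked bars give the share of WT CTCF summits (%) in each of 10 equal classes of WT value, split by presence within 500 bp in the deletion and rescue lists. The red share, in deletion and not in rescue, is largest in the second class at 29.3% and smallest in the highest class at 0.945%.

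In the deletion list the same sites ranked just below the middle, and lower than sites found in all 3 lists. The deletion summit nearest to a rescue-absent site had a median value of 7.0 (range 1.35 to 33.1), against 13.3 where all 3 lists had a summit. By rank within the deletion list, the median stood at percentile 43.1 and 73.9, respectively. Below the median of the deletion list lay 59.8% (58.0 to 61.5) of rescue-absent sites and 19.4% (18.7 to 20.1) of the others. When the 17049 sites were split into 10 classes by their deletion value, 51.7% (881 of 1704) of the lowest class were rescue-absent and 0.352% (6 of 1705) of the highest.

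WT and deletion values of the same site had a Spearman correlation of 0.36 over the 2959 rescue-absent sites, against 0.61 over the 14090 sites in all 3 lists. The choice of sites narrows the range of values. Percentiles 10 and 90 of the WT value were 2.28 and 8.14, against 3.41 and 16.4. Correlations over equal ranges were not compared. Sites of 1 list share its libraries and depth, so these are descriptions of the lists. The deletion value was the higher one at 80.2% of rescue-absent sites and at 88.0% of sites in all 3 lists. The lists are not scaled to each other, so this does not compare binding between genotypes. Deletion summits lay close to the WT ones, with a median distance of 73 bp against 59 bp, and at the same base for 32 rescue-absent sites.

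**Figure D2:**
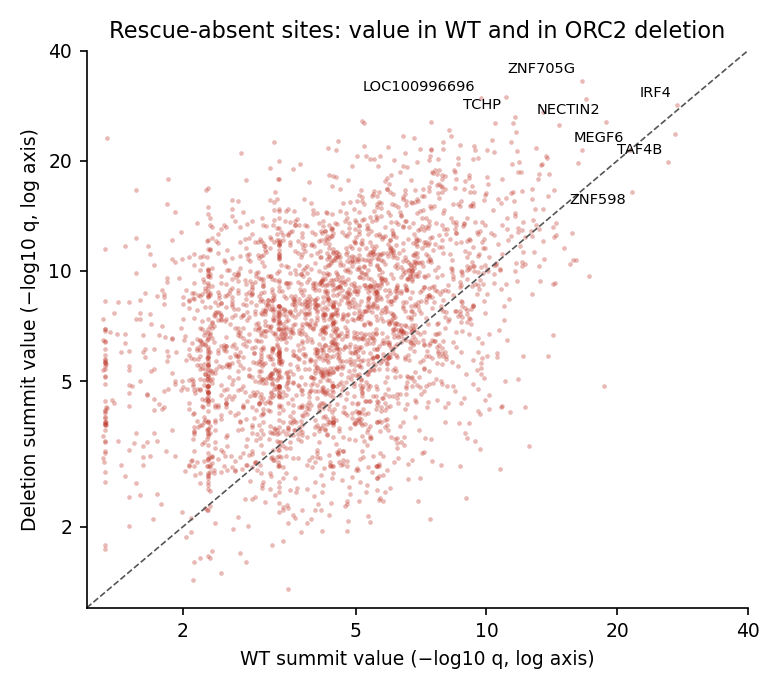
Each point is 1 of the 2959 rescue-absent sites, by its WT summit value and the value of the nearest deletion summit (−log10 q, both axes log), with named genes at the extremes and a dashed line of equal values. Most points lie above the line (80.2%), and none exceeds 27.5 on the WT axis or 33.1 on the deletion axis.

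The absence of a rescue summit was rarely a matter of a few bases. The nearest rescue summit was a median of 28508 bp away, 77 sites (2.6%) had one within 1 kb, 709 within 10 kb, and 550 (18.6%) had none within 100 kb. Just inside the limit, 27 sites had their nearest rescue summit no farther than 600 bp, with a median WT value of 4.97. Just outside it, 66 WT summits with a deletion summit had a rescue summit at 400 to 500 bp, with a median of 5.15. At the other limit, 25 rescue-absent sites had their deletion summit at 400 to 500 bp (median 3.49), and 24 WT summits without rescue missed the rule with a deletion summit beyond 500 bp but within 600 bp (median 3.63). The site farthest from any rescue summit, 2404779 bp, lay inside PTPRD, a receptor tyrosine phosphatase, with a WT value of 5.51 and a deletion value of 8.20.

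The number of such sites depended on the lengths of the lists, the distance and the threshold. The deposited deletion list is the longest, and the 2959 rescue-absent sites outnumbered the 431 summits of WT and rescue without deletion 6.87 times. When each list was limited to its 19044 highest values, 1959 sites were rescue-absent and 1729 had rescue without deletion, a ratio of 1.13. With deposited lengths the ratio was 1.81 with matching within 100 bp, 3.73 within 250 bp, 10.2 with a minimum value of 5 and 14.3 with one of 10. Of those 1959 sites, 1671 were among the 2959. With a value of at least 10 required in all 3 lists, 1146 sites were rescue-absent, 28.2% of the 4063 with a deletion summit, but only 99 of them were among the 2959. Under that setting a rescue summit below 10 no longer counted.

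The strongest rescue-absent site lay inside IRF4, a transcription factor of lymphoid cells, at position 408964 of chromosome 6 (hg38). Its value was 27.5 in WT, at rank 379 of that list, and 28.5 in deletion, at rank 1436. The nearest rescue summit was 239905 bp away. Inside TAF4B, a subunit of the general transcription factor TFIID, the site at 26383694 of chromosome 18 had values of 26.2 in WT and 19.9 in deletion. ZNF598, a ubiquitin ligase that senses collided ribosomes, held one at 2004067 of chromosome 16, with 21.6 and 16.4. Inside MEGF6, on chromosome 1 at 3615432, the values were 21.4 in both lists and the summits were 3 bp apart. These 4 sites had ranks 379 to 734 in the WT list, and their nearest rescue summits were 3814 to 239905 bp away.

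Of the 25 strongest sites with a gene, 4 had a rescue summit just beyond the limit, so that a distance of 1 kb would remove them. At NECTIN2, a cell adhesion molecule, a rescue summit of value 19.5 stood 648 bp from the WT summit of 18.8. At PSMD11, a subunit of the proteasome's regulatory particle, one of 18.4 stood 592 bp from the WT summit of 16.9. Near the cytokine gene IL3, one of 12.2 stood 611 bp from a WT summit of 15.1. At VAV1, a signalling protein of blood cells, one of 4.72 stood 719 bp from a WT summit of 16.2. Above the median of the WT list 4.42% (30 of 679) of rescue-absent sites had a rescue summit within 1 kb, and below it 2.06% (47 of 2280).

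Among the other strong sites, PENK, the gene of the opioid precursor proenkephalin, had a WT value of 18.6 and a deletion value of 4.83, rank 1026 of 19044 and rank 23043 of 31112 in lists that are not scaled to each other. CUL2, a cullin scaffold like CUL5, had 15.8 and 10.7. FDX1, a mitochondrial ferredoxin, had 14.0 and 18.4. TBCD, a tubulin folding cofactor, had 14.5 and 13.5, and BUD31, a splicing factor, 14.4 and 12.6. ADARB2, a relative of the RNA-editing enzymes, had 14.4 and 9.30. The remaining genes were UGT2B28, BUD13, CLECL1, ADGRL4, LOC122394732, DZIP1L, MYLK4, STMND1, DHRS4L2, OR8B3 and ZNF705G, with WT values of 13.7 to 16.6.

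By deletion value the order was different. The first was 22 bp outside ZNF705G on chromosome 8 (7355495), with 33.1 in deletion and 16.6 in WT. ZNF705G belongs to a set of near-identical gene copies, 2 more of which, ZNF705B and ZNF705A, also had a rescue-absent site. How reads with several matches were placed is not given in the sources used here, so these 3 sites are uncertain. TCHP, a keratin-binding protein, followed with 29.9 in deletion and 11.1 in WT, then LOC100996696 with 29.6 and 9.69, PSMD11 with 29.5 and IRF4. PLXNA2, a semaphorin receptor, had 27.3 and 13.5, and the site nearest MESP1, a transcription factor of early mesoderm, 26.3 and 11.6. ARHGAP15, a Rac GTPase-activating protein, had 25.7 in deletion and 5.18 in WT, where it ranked 11499. PPP1R12B, a myosin phosphatase subunit, had 25.6 and 7.47, and NECTIN2 25.6. Of these 10 sites, 4 (ZNF705G, PSMD11, IRF4 and NECTIN2) were also among the 25 strongest by WT value with a gene.

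Rescue-absent sites lay more often at a transcription start than summits found in all 3 lists, but no more often than the other WT summits that a list lacked, and the order depended on the threshold. A protein-coding gene held 49.3% (47.5 to 51.1) of them and 46.6% (45.7 to 47.4) of summits found in all 3 lists. Within 1 kb of either end of any gene lay 22.5% (21.0 to 24.0) and 18.3% (17.6 to 18.9), and 19.7% of all WT summits. This share was 27.1% for WT and rescue without deletion and 25.1% for WT only. Outside chromosome 8, for which no starts were used, 15.3% (14.0 to 16.6) lay within 1 kb of a transcription start, against 10.8% (10.3 to 11.3) of those in all 3 lists. The share was 17.8% (14.4 to 21.8) for summits of WT and rescue without deletion and 19.3% (17.4 to 21.4) for those found only in WT. Within 100 bp of a start the shares were 3.52% (100 of 2841) and 1.87% (250 of 13383). They were higher for WT and rescue, 4.63% (19 of 410), and for WT only, 5.82% (87 of 1495).

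The shares at starts were then read by WT value. Below the median of the WT list 16.0% (14.6 to 17.6) of rescue-absent sites and 9.51% (8.74 to 10.3) of summits in all 3 lists lay within 1 kb of a start, against 17.7% for WT and rescue and 19.5% for WT only. Above the median the shares were 12.7% (10.4 to 15.5) and 11.6% (10.9 to 12.3), and these intervals overlap. The excess over summits in all 3 lists was smaller with matching within 100 bp, 11.86% against 11.01%, with lists of equal length, 12.2% against 10.6%, and with a minimum value of 5, 11.8% against 11.2%. It turned round with a minimum value of 10, where 11.2% of rescue-absent sites and 13.6% of sites in all 3 lists lay within 1 kb of a start.

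**Figure D3:**
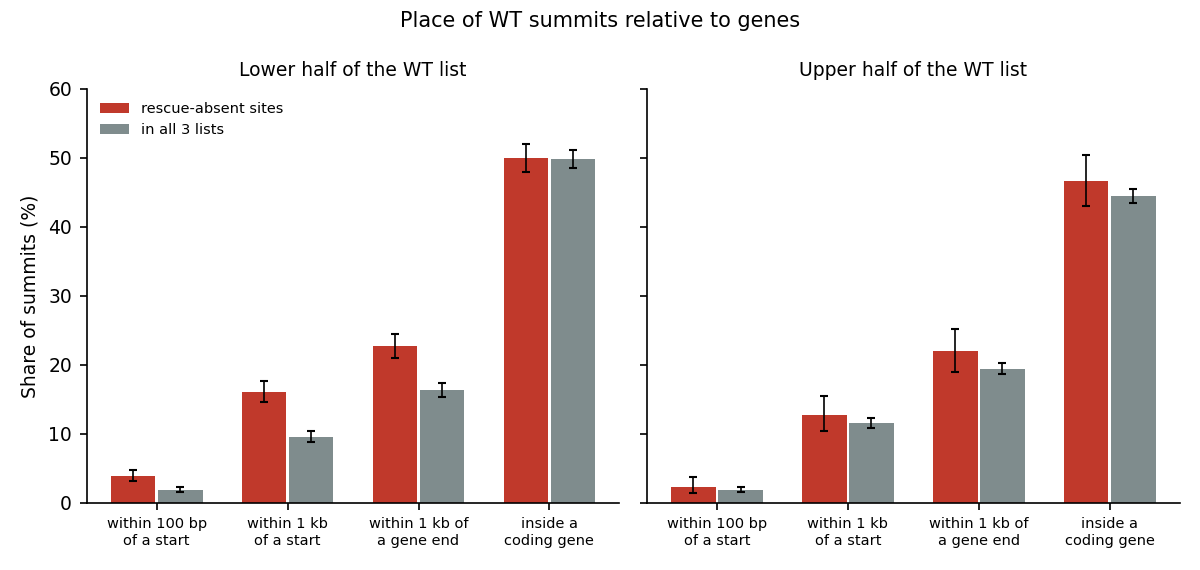
Bars give the share of summits (%) within 100 bp or 1 kb of a transcription start (without chromosome 8), within 1 kb of a gene end, or inside a protein-coding gene, with 95% Wilson intervals, for rescue-absent sites (red) and summits in all 3 lists (grey). Below the median of the WT list the red bar within 1 kb of a start reaches 16.0% and the grey one 9.51%, whereas the bars for the inside of coding genes are at 50.0% and 49.8%.

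At the other extreme, 465 rescue-absent sites (15.7%) had no protein-coding gene within 50 kb, against 12.3% of sites in all 3 lists, 15.8% of WT and rescue and 21.5% of WT only. Below the median of the WT list the rescue-absent share was 15.5% (14.1 to 17.0), that of all 3 lists 13.8% (12.9 to 14.7) and that of all WT summits 15.6%. For 48 rescue-absent sites none lay within 500 kb (1.62%), against 0.653% in all 3 lists and 3.58% of WT only. The strongest without a gene within 50 kb was on chromosome 8 at 104759949, 170691 bp from LRP12, with a WT value of 27.1 and a deletion value of 23.7. The other 2494 sites belonged to 2239 genes, and 218 genes had 2 or more. ARHGAP42, a GTPase-activating protein, had the most, with 5 of its 7 WT sites that had a deletion summit. ATXN1, a chromatin-associated repressor, had 4 of 8, and IGF1R, the receptor of insulin-like growth factor, 4 of 7. GSE1 had 4 of 17. Of LYRM4, a factor of iron-sulfur cluster assembly, all 4 WT sites that had a deletion summit were rescue-absent. So were all 3 of JARID2, a Polycomb partner, of PHEX, an endopeptidase of phosphate balance, and of ADGB, KATNAL2, NXT1, SIRT4, SPAG16, ZFP36L1 and ZNF407. ARHGAP15 had 4 of 6. These genes were picked for their counts. Over all sites with a coding gene within 50 kb and a deletion summit, 16.8% were rescue-absent. How many genes had several such sites was not counted, so these counts cannot be read as particular to these genes.

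By chromosome, the rescue-absent share of WT summits with a deletion summit was 12.4% to 22.1% on 21 of 23 chromosomes. It was 31.1% (103 of 331, 26.4 to 36.3) on X and 28.9% (37 of 128, 21.8 to 37.3) on 21, against 17.4% over all. Chromosome 4 came next, at 22.1% (172 of 779, 19.3 to 25.1). The lowest was chromosome 17, at 12.4% (112 of 904, 10.4 to 14.7). WT summits on X were weaker, with a median value of 4.43 against 6.18 over all. Split at the median of the WT list the X share was still the higher one, 39.4% against 29.4% below it and 14.5% against 7.30% above it. With lists of equal length X stood at 23.4% and all chromosomes at 13.8%. With a minimum value of 10, X stood at 22.2% and all chromosomes at 28.2%. That X share rests on 6 of 27 summits, too few to give an order. For chromosome 21 the shares were 45.9% below the median and 13.4% above it.

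Within chromosome 6, the first 30 Mb had 59 rescue-absent sites among 131 WT summits with a deletion summit, 45.0% (36.8 to 53.6), and the rest of the chromosome 13.5% (11.2 to 16.1). This segment was picked out because an earlier look at these lists had shown few rescue summits in it. Its high share therefore follows from that choice and is not a finding. It held 98 rescue summits against 193 in WT and 189 in deletion. Per WT summit that made 0.979 deletion and 0.508 rescue summits, against 1.64 and 1.10 outside X and this segment. Both lists were thus short there relative to WT, and 131 of its 193 WT summits had a deletion summit, against 89.5% of all. Its rescue-absent share was 30 of 46 below the median of the WT list and 29 of 85 above it. The segment's share stayed above that of all chromosomes under the settings tried, which use the same lists and so add no support. It was 41.0% (32 of 78) with lists of equal length and 62.5% (only 15 of 24) with a minimum value of 10. IRF4, LYRM4, JARID2, ATXN1 and MYLK4 lie in it.

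**Figure D4:**
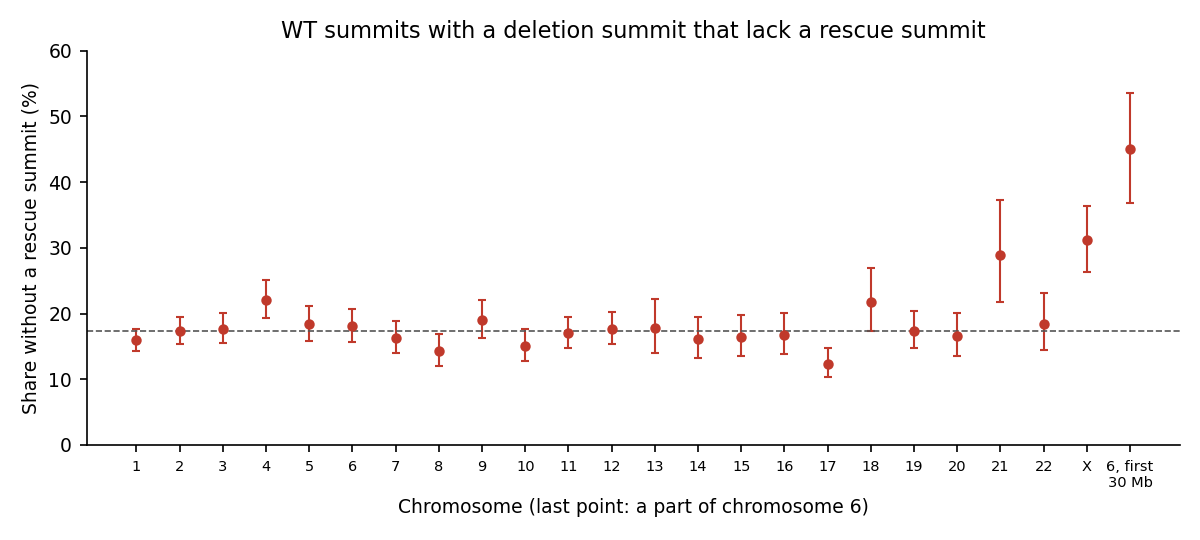
Points give, by chromosome, the share (%) of WT summits with a deletion summit that lack a rescue summit, with 95% Wilson intervals, and the dashed line marks 17.4% over all. Chromosomes X (31.1%), 21 (28.9%) and 4 (22.1%) and the first 30 Mb of chromosome 6 (45.0%) stand above the line with their intervals. That part of chromosome 6 was picked for its few rescue summits.

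In bins of 10 Mb with at least 20 such summits, 272 in all, the share ranged from 0% to 52.2% with a median of 16.7%, and 11 bins reached 40%. Of these 11, 5 were on X and 3 were the first bins of chromosome 6. The highest was X from 20 to 30 Mb, with 12 of 23 and with 26 WT, 45 deletion and 16 rescue summits. X from 110 to 120 Mb had 17 of 35, with 42 WT, 58 deletion and 29 rescue summits. X was not high throughout, since 130 to 140 Mb had 2 of 31, with 34 WT and 78 rescue summits, 150 to 160 Mb had 2 of 25 and 70 to 80 Mb had 2 of 20. Chromosome 5 from 100 to 110 Mb had 12 of 27, though its rescue list was as long as its WT list there, 30 against 28 summits. At the other end, chromosome 17 from 70 to 80 Mb had 3 of 149, and chromosome 6 from 90 to 100 Mb had 0 of 30.

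Most rescue-absent sites stood alone. At a share of 17.4% of WT summits with a deletion summit, most would do so even if placed at random. Going along each chromosome over the WT summits with a deletion summit, 1885 of the 2959 (63.7%) had no rescue-absent neighbour, 716 came in 358 pairs, and the rest in longer runs. After a rescue-absent site the next one was rescue-absent in 20.8% of cases (19.4 to 22.4), and after a site in all 3 lists in 16.6% (16.0 to 17.2). Without X and the first 30 Mb of chromosome 6 these shares were 19.4% (18.0 to 20.9) and 16.3% (15.7 to 17.0).

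The longest run had 8 sites over 2401 kb of chromosome 6, from 4155923 to 6557167. That span held 17 WT, 9 deletion and 2 rescue summits. Only 8 of the 17 WT summits belong to the run. The others had no deletion summit within 500 bp, and runs pass over such summits. The run began near ECI2, an enzyme of fatty acid oxidation, with 8.74 in WT and 11.97 in deletion. It took in the 4 rescue-absent sites of LYRM4, with WT values of 5.84, 6.37, 7.68 and 10.0 and deletion values of 3.76, 6.92, 8.81 and 5.86, and ended with 2 sites near LY86, a partner of the receptor RP105 (7.27 and 9.82 in WT). Its WT values had a median of 7.47, above that of all rescue-absent sites.

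The second run, on chromosome 2 from 212686507 to 215270100, had 7 sites in 2584 kb, where 7 WT, 10 deletion and 6 rescue summits lay. Here rescue summits were present between the sites. The run held a WT summit of 17.2, 222686 bp from IKZF2, a lymphoid zinc finger factor, with 9.71 in deletion, one of 6.79 at 147705 bp from ERBB4, a receptor tyrosine kinase, and weaker ones near IKZF2 (2.44), SPAG16, a protein of the sperm tail (3.45, 6.53 and 3.32), and ATIC, an enzyme of purine synthesis (3.36).

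Runs 3 and 4 were on X. The first of them, from 119610460 to 120380992, had 7 sites near NKRF, SOWAHD, the ribosomal protein gene RPL39, the complex I gene NDUFA1, AKAP14 and ATP1B4, with WT values of 1.32 to 7.18. Its 771 kb held 8 WT, 11 deletion and 4 rescue summits. The other, from 111681049 to 114611320, had 6 sites at or nearest to ALG13, an enzyme of protein glycosylation, the cation channel gene TRPC5, LHFPL1 and HTR2C, a serotonin receptor, with WT values of 2.28 to 9.36. Only 1 rescue summit lay in its 2930 kb, beside 7 WT and 7 deletion summits. The fifth, on chromosome 4, was the longest in span of 8 runs with 5 sites. Its sites were weak (2.23 to 4.36 in WT) and lay over 3679 kb, none with a coding gene within 50 kb. The nearest to a gene was 112037 bp from PCDH10, a protocadherin.

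**Figure D5:**
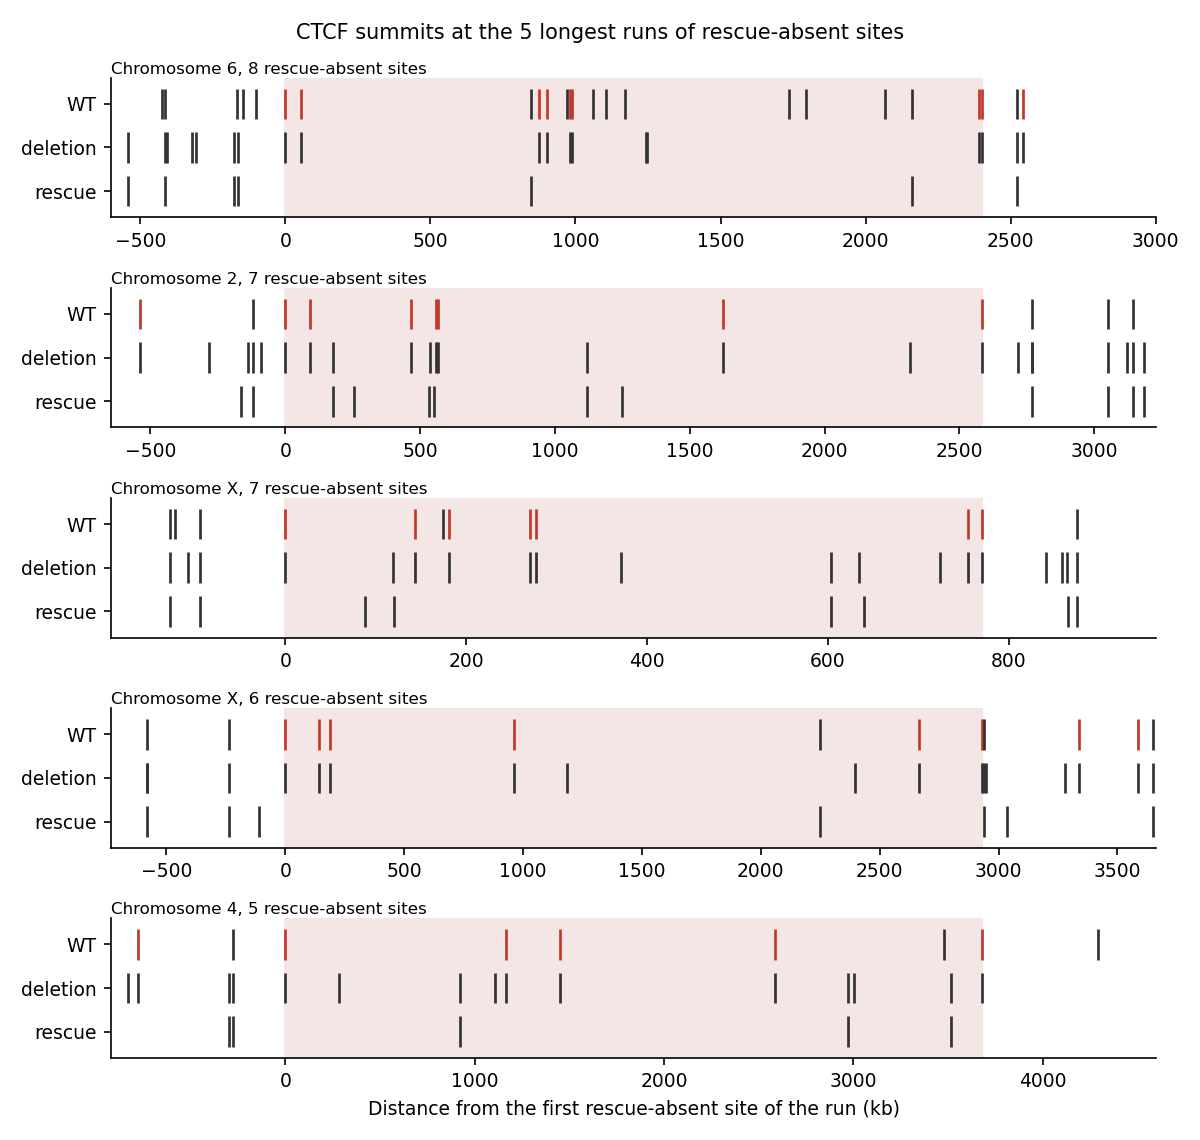
Ticks mark CTCF summits of the WT, deletion and rescue lists by distance from the first site (kb) at 5 runs, those with most sites and then the longest span, which are shaded, with rescue-absent sites in red. The run on chromosome 6 spans 2401 kb with 8 red ticks and 2 rescue ticks, and the one on chromosome 2 has 6 rescue ticks between its 7 red ones.

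Sites were then read by the function of their gene. That gene holds the site or is the nearest coding gene within 50 kb, so some sites lie well outside it. Over all sites with a coding gene within 50 kb, 16.8% (2494 of 14844 with a deletion summit) were rescue-absent. The 23 lists are small, and each count is set against that share only as a description. The interval lay off that share, above it, for 4: ZNF, clustered protocadherin, cell cycle and very long genes. The lists also differ in WT value, with which the share falls. The median over sites with a deletion summit was 6.71 for all, 4.19 for neuronal and 9.27 for mesenchymal genes. It was 6.94 for ZNF genes and 11.4 for protocadherins, the latter over only 3 sites. Shares were not split by WT value within lists, so a link to function was not tested. Of genes that shape chromosomes, cohesin and loop extrusion genes had 4 of 29 rescue-absent: STAG2, a cohesin subunit (3.72 in WT, 3.68 in deletion), YY1, a loop-forming transcription factor (3.32 and 5.17), NCAPD3 of condensin II (2.12 and 1.60) and RAD21, the cohesin kleisin (1.84 and 6.06). Polycomb and heterochromatin factors had 3 of 36, at EHMT1, a histone H3 lysine methyltransferase, and at the HP1 genes CBX5 and CBX1. Histone genes had 4 of 15, 2 of them nearest to H2AC12 and H2BC13 on chromosome 6. All of the named cohesin and Polycomb sites had WT values below the rescue-absent median of 4.30.

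Replication licensing and firing genes, the group that includes ORC2, had 6 of 19. At MCM3, a subunit of the MCM helicase, the WT value was 7.41 and the deletion value 20.6, 103 bp outside the gene. PCNA, the sliding clamp, had 4.57 and 4.90. ORC4, a further subunit of the origin recognition complex, had 3.72 and 8.92 with the nearest rescue summit 82846 bp away. The site of MCM9, 36694 bp outside the gene, had 3.25 and 7.37. Cell cycle genes had 10 of 32, with MAD2L1 of the spindle checkpoint (6.21 and 10.2), the repressor E2F7 (5.51 and 6.46) and the CDK inhibitors CDKN2C (5.38 and 11.3) and CDKN2B (5.08 and 11.5). The CDKN2B site lay 29039 bp outside that gene. DNA damage genes had 4 of 24, at XRCC1, ATM and RIF1 and 15181 bp outside MSH6, and p53 pathway genes 2 of 27, at CDKN1A and CASP8.

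Of gene clusters in which CTCF sites are known to order promoters, HOX genes had 1 of 16 rescue-absent, inside HOXD10 (9.17 in WT, 12.1 in deletion). Clustered protocadherins had 2 of 3, inside PCDHAC1 (3.67 and 11.2, at the same base) and 9924 bp from PCDHB1 (13.1 and 17.8). Imprinted genes had 3 of 22, at MAGEL2 and PLAGL1. Among large families, ZNF genes had 50 of 184, 27.2% (21.3 to 34.0), over 44 genes led by ZNF598, ZNF705G, ZNF354A and ZNF705B. Olfactory receptors had 7 of 59, led by OR8B3, and ribosomal protein genes 8 of 49, led by RPL11 (10.0 in WT, 21.4 in deletion). Very long and fragile-site genes had 23 of 92 (17.3% to 34.7%), with LSAMP, EYS, PDE4D and CTNNA3 first.

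Of signalling genes, the TGF-beta and BMP pathway had 13 of 51, with the receptors BMPR1B (9.57 in WT, 9.95 in deletion) and TGFBR2 (8.69 and 7.64), the ligand GDF5 and the inhibitor SMAD6. The WNT pathway had 7 of 65, with the receptors LGR6 and FZD5, the ligand WNT3A and the inhibitor DKK1, and RAS, MAPK and PI3K genes 14 of 112, led by the phosphatase DUSP1. Developmental transcription factors had 19 of 154, led by PITX3 and NKX2-2, whose nearest rescue summits were 967 and 1148 bp away, and nuclear receptors 9 of 51, led by NR2F2 (8.50 in WT, 6.22 in deletion).

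Intestinal epithelium genes, of the tissue HCT116 comes from, had 8 of 43. HNF4A, a master regulator of that tissue, had 5.92 in WT and 5.39 in deletion. Of genes that mark other cell types, neuronal genes had 15 of 58, led by DLG2, mesenchymal genes 3 of 28, at COL5A1 and PDGFRA, and haematopoietic genes 3 of 26, at RUNX3, SPI1 and EBF1.

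Of 14 genes looked up with 10 kb on either side, 6 had 1 rescue-absent site each and the others none. ORC1, ORC3, CTCF and H19 had no WT summit there and so could have none. Over all WT summits the rescue-absent share was 15.5%, and a panel this small cannot be set against it. CDKN1A, a CDK inhibitor and p53 target, had 1 summit in WT (3.26), 1 in deletion (16.5) and none in rescue, the nearest being 44079 bp away. ORC5 had its only WT summit rescue-absent (3.23 in WT, 6.13 in deletion), and ORC4 had 1 of 2. At CDH1, encoding E-cadherin, the site of 4.25 in WT and 12.8 in deletion had a rescue summit of 9.43 at 508 bp, just beyond the limit. The site of PCDHA12 is the one inside PCDHAC1, and that of RAD21 is given above. ORC2 had none, with 2 WT, 7 deletion and 5 rescue summits, and neither had ORC1, ORC3, ORC6, CTCF, HOXA9, H19 or APP.

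In the background lists, 1 rescue-absent site lay within 500 bp of a deletion IgG summit and none within 500 bp of a WT or rescue IgG summit. No rescue-absent summit lay inside a region of the authors' deposited up or down lists. For 43 sites the nearest deletion summit stood inside an up region. The share of all WT summits in these regions is not at hand, so these counts cannot be read as particular to rescue-absent sites. Nor can the IgG counts. Leaving out summits within 1 kb of an IgG summit left 19020 of 19044 WT summits and 2957 of the 2959 rescue-absent sites. The deposited up and down lists do not name the groups they compare.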

How the data were processed

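CTCF CUT&RUN was done in WT, ORC2 deletion and rescue cells. Reads were processed with FastQC 0.11.5, Bowtie2 2.2.9, SAMtools 1.12, MACS2 (no version named) and build hg38, per the submitters' processing notes. No calling settings were at hand. Deposited summit lists hold 1 base per peak and the authors' −log10 q, which was used only within its own list. Each list was taken as the pool of its genotype's libraries.

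Summits were matched within 500 bp. Shares carry 95% Wilson intervals, and no test was run. Sites took the protein-coding gene that holds them or the nearest within 50 kb (RefSeq, GRCh38.p14). Promoter windows and transcription starts on chromosome 8 were not used here. Named genes were the first 25 by WT value, 10 by deletion value, those of the 5 longest runs, up to 4 per list and a panel of 14. Those of the motif matches shown, of the site farthest from rescue, of LRP12 and with several sites were named after their values were seen. The members and the 23 gene lists were chosen with earlier results of these data known. One gene that the naming rule gave is not reported here. Matching and motif search were tested on simulated data, where 1215 of 1215 planted sites and 400 of 400 motif windows were recovered. Alternatives changed the distances, value minimums, list lengths, regions, gene windows and motif forms.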

Additional observations from a re-analysis of the deposited data

How the results depend on the processing

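No paired analysis was possible because the summit lists, 1 per genotype, name no replicate, and for the same reason no replicate could be left out. Depth is unknown, so whether a missing rescue summit lies just below the calling threshold was not tested. The number of rescue-absent sites moved from 2959 to 1146 with a minimum value of 10 and to 1959 with lists of equal length. The other settings gave 2304 to 4054. As a share of WT summits with a deletion summit, 17.4% became 35.1% with matching within 100 bp, 20.3% within 250 bp, 16.5% with rescue summits sought within 2000 bp, 20.8% with a minimum value of 5, 28.2% with 10, and 13.8% with equal lengths. The share near gene ends, 22.5% within 1 kb, was 16.4% within 500 bp, 29.5% within 2 kb and 16.2% for protein-coding genes alone. The motif share of 8.80% was 22.7% with the looser letters and 1.85% with the stricter ones. Leaving out chromosome X, alone or with the first 30 Mb of chromosome 6, was chosen after seeing the data and gave 2856 and 2797 sites.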
